A study of Mus musculus with 6 samples.

Results

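The nuclear-encoded genes of oxidative phosphorylation were examined in mouse cerebellum at postnatal day 18. They were chosen by symbol: every counted gene whose symbol starts with Nduf, Uqcr, Atp5, Cox4, Cox5, Cox6, Cox7 or Cox8, plus Sdha, Sdhb, Sdhc, Sdhd and Cyc1. This gave 93 of the 24411 genes counted, of which 36 belong to complex I, 4 to complex II, 9 to complex III, 19 to complex IV and 15 to complex V. The other 10 symbols (Ndufaf1 to Ndufaf7, Cox7a2l, Atp5s and Atp5sl) name assembly and other factors that are not subunits or are not settled as such, and they are given as a group of their own. RNA was sequenced from 3 KO and 3 WT replicates, described as independent, and whether a replicate is 1 animal or a pool is not stated in the labels. The KO group lacked a remote enhancer of Atoh7, which encodes a proneural transcription factor, and the WT group carried it. No further allele, agent or strain is named, and the deletion is not limited to a cell type by anything in the labels. P-values below measure the spread among these 6 libraries.

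Oxidative phosphorylation couples the oxidation of NADH and succinate to ATP synthesis in the inner mitochondrial membrane. Complexes I and II pass electrons to ubiquinone, complex III passes them on to cytochrome c, complex IV reduces oxygen, and complex V uses the resulting proton gradient to make ATP. Most subunits are encoded in the nucleus and imported, a smaller set is encoded in the mitochondrial genome, and in the brain much of the ATP made this way is spent on ion pumping in neurons. The 13 mitochondrial-genome subunits were not analysed here.

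The libraries were not alike. Their totals were 46160747 to 51947647 reads, and the genes described here drew 348755 to 375579 reads in KO libraries, against 273667, 267087 and 59260 in WT replicates 1 to 3. The ribosomal RNA precursor Rn45s took 63.2% of the gene reads of WT replicate 3, which left 6015125 reads on other genes. Reads outside genes made up 17.3% ± 0.291 of KO libraries and 34.3% ± 3.59 of WT libraries (SD, n = 3 each). The sample entries name retina as the tissue, while the design names cerebellum. Levels are given as CPM, counts scaled to 1e+06 gene reads after library sizes were adjusted by TMM factors. Summed over 12 genes each, retinal markers reached 8.23 to 11.4 CPM in KO and 9.99 to 12.1 CPM in WT, with the photoreceptor factor Crx at 0. Cerebellar markers reached 2763 to 3497 CPM in KO and 2956 to 3708 CPM in WT. Counts of genes past the test are therefore given with all 6 libraries and without WT replicate 3.

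In the KO cerebellum 12 of the 90 testable oxidative phosphorylation genes rose, none fell and 78 did not pass the test. The 12 were Ndufa11, Ndufs3, Ndufs6 and Ndufv1 of complex I, Sdhb, Sdhc and Sdhd of complex II, Uqcrc1 of complex III, Cox5a and Cox7b2 of complex IV, Atp5g1 of complex V and the factor Cox7a2l. The threshold was an adjusted p under 0.05 in the quasi-likelihood test of edgeR, Benjamini-Hochberg adjusted over 15519 genes, and all adjusted p-values below come from that test unless another is named. The 12 amount to 13.3% of the genes tested, against a background of 6.43% of all tested genes that were higher in KO and 10.2% that were lower. Among the 9819 genes with a mean of at least 10 CPM, to which 82 of the 93 belong, 9.39% were higher. Unadjusted p-values under 0.05 were reached by 25 genes in the higher direction (background 14.7%) and by 2 in the lower (background 17.8%), and DESeq2 called 1 gene lower, Cox7a1. The changes were small. The only one of the 12 to reach 1.5-fold was Cox7b2, a gene of very low level that passed the filter on low counts through its KO libraries. The 12 and the 13.3% include Cox7b2, whose call is therefore not independent of the filter.

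Without WT replicate 3 the same 12 genes passed the test and 22 more did so, giving 34 higher and 0 lower of 91. The 34 were 37.4%, against a background of 10.2% higher and 13.2% lower among all genes. Among those of at least 10 CPM, 15.4% were higher. At an unadjusted p under 0.05 in that fit 43 of the 91 were higher and 3 lower, and the share over all genes was not counted. The median log2 fold change of the 90 genes was 0.06 with all libraries, beside −0.0055 for all tested genes, and 0.13 for 91 genes without WT replicate 3, beside 0.0043. Among all genes of at least 10 CPM the medians were 0.030 with all libraries and 0.035 without WT replicate 3. Fold changes were positive for 59 of 90 genes with all libraries and for 79 of 91 without that library. The added gene, Cox6a2, is among the 79 and passed the filter on low counts through its KO libraries. As background without WT replicate 3, fold changes were positive for 7855 of 15519 genes and for 5597 of the 9819 of at least 10 CPM. With all libraries this background was not counted. In 27 genes every KO library lay above every WT library (background 18.9%), and in 3, Cox7a1, Atp5j2 and Ndufaf4, every KO library lay below (background 20.5%). The 12 genes that passed were selected on these same libraries, so their lack of overlap, given below, is not a separate result. Set against WT replicates 1 and 2 alone, 52 genes had all KO libraries above (background 25.3%) and 3 had them below (background 26.9%).

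The calls depended on the KO libraries as well. Leaving out KO replicate 1, 2 or 3 left 3, 2 and 1 genes higher, while the background fell to 2.27%, 1.88% and 1.56%. Leaving out WT replicate 1 or 2 left 9 and 6 genes higher, at backgrounds of 6.16% and 2.59%. Sdhb passed in each of the 6 fits that left out a library, and Cox7a2l passed in 5 of them, failing without KO replicate 3. The other 10 genes each lost their call in at least 3 of the 6 fits. The fold changes of the 12 were positive under each of the 13 other settings tried.

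**Figure D1:**
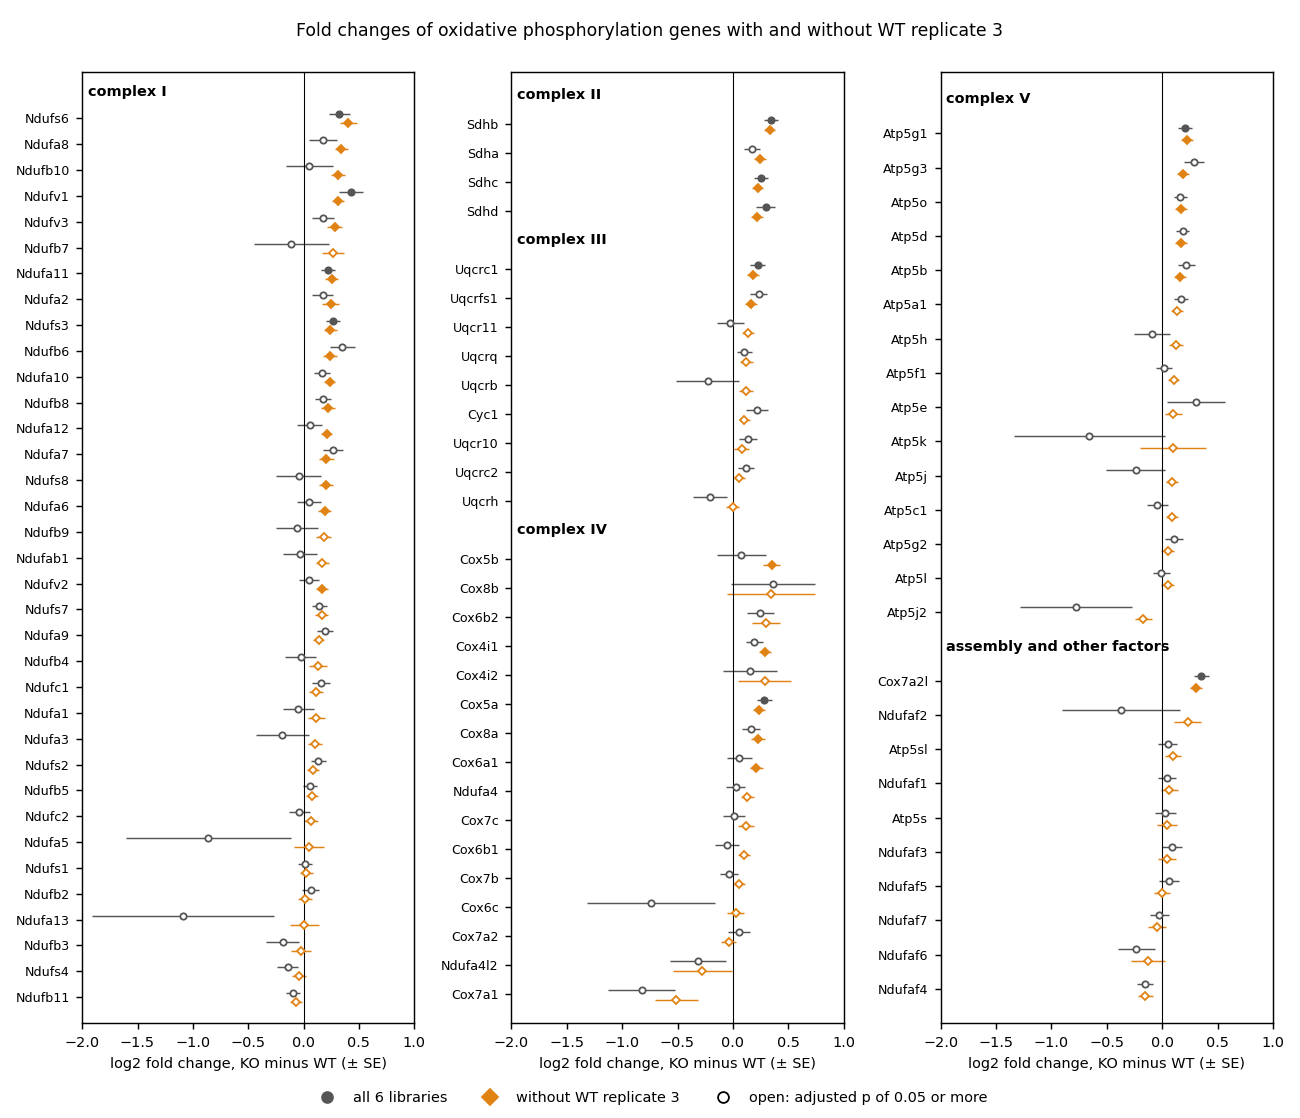
Log2 fold change, KO minus WT, with its standard error for each testable gene, by complex, fitted with all 6 libraries (grey circles) and without WT replicate 3 (orange diamonds), with filled symbols for an adjusted p under 0.05. Cox7b2, at 1.46 and 1.65, lies outside the axis and is not drawn. With all libraries the widest errors belong to genes such as Ndufa13 and Ndufa5 at the far left, which move close to 0 without WT replicate 3.

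The promoters of the genes that rose were read for motifs of known regulators of this pathway. As background, nuclear respiratory factor 1 (NRF1) and the ETS-family factor GABP are known activators of nuclear oxidative phosphorylation genes. CACGTG, 1 form of the E box, is bound by some basic helix-loop-helix factors. Promoter windows of 300 bases (250 before to 50 after the RefSeq start, assembly GRCm38.p6) were available for 76 of the 93 genes and 11 of the 12 that rose. The letters searched, on both strands, were GCATGCG for NRF1, CCGGAAG for the ETS core and CACGTG, called the E box below. Other forms of the E box were not searched. The NRF1 letters were in 13 of 76 windows (17.1%), against 6.73% of the windows of all tested genes and 4.01% of all windows. The ETS letters were in 17 (22.4%, against 17.5% and 9.93%) and the E box in 7 (9.21%, against 11.2% and 8.09%). Of the 11 windows of genes that rose, 3 held the NRF1 letters, 3 the ETS letters and 2 the E box. Of the 64 windows of tested genes that did not pass, 10 held the NRF1 letters, 14 the ETS letters and 5 the E box. The 150 bases before the start are shown for 6 of the genes that rose: 2 with the NRF1 letters, 2 with the ETS letters, 1 with the E box and, as the gene with the second smallest adjusted p, Cox7a2l, which had none of the 3. They run 5′ to 3′ on the strand of the gene, with capitals marking the letters found.
Sdhb: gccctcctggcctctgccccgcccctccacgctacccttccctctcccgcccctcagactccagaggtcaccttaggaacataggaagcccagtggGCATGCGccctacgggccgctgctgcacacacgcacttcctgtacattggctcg
Ndufa11: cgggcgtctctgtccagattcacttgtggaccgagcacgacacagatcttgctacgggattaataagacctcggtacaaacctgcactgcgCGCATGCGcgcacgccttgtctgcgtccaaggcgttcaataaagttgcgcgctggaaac
Ndufs3: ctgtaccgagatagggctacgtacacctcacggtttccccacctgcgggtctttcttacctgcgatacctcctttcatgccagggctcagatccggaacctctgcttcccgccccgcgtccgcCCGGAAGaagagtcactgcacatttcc
Sdhd: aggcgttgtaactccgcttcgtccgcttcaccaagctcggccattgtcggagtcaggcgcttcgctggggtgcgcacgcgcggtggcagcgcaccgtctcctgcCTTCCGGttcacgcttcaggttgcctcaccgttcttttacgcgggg
Atp5g1: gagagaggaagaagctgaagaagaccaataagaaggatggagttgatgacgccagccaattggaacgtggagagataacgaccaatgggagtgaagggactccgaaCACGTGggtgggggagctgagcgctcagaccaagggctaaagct
Cox7a2l: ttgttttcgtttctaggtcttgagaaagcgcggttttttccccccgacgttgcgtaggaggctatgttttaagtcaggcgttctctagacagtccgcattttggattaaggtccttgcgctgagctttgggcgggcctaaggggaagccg
The windows lie on GRCm38.p6 at chr4:140961121-140961270, plus strand (Sdhb), chr17:56717612-56717761, plus strand (Ndufa11), chr2:90904722-90904871, minus strand (Ndufs3), chr9:50603850-50603999, minus strand (Sdhd), chr11:96075632-96075781, minus strand (Atp5g1) and chr17:83514334-83514483, minus strand (Cox7a2l). Counted from the start, the letters begin at −54 in Sdhb, at −59 and −58 on opposite strands of 1 overlapping site in Ndufa11, at −27 in Ndufs3, at −46 in Sdhd and at −44 in Atp5g1. Sdhb also held the ETS letters at 7 bases after the start, and Ndufs3 held them again at 2 bases after it, both outside the stretch shown. Uqcrc1 had the NRF1 letters at 32 and 33 bases after the start, and Ndufv1 had the E box at −169. The Cox7a2l window lies wholly inside the gene span given below, so its lack of matches concerns a RefSeq start within the gene. The Sdhb, Ndufs3 and Atp5g1 windows lie partly inside their gene spans. Those spans begin, on the strand of the gene, at base 140961203 for Sdhb, 90904827 for Ndufs3 and 96075670 for Atp5g1. The letters shown for Sdhb and Ndufs3 thus fall inside the gene span, and those for Atp5g1 reach its edge. A match describes letters in a window and is not a binding site.

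Complex I feeds electrons from NADH to ubiquinone. With all libraries 4 of its 35 testable genes rose (11.4%, background 6.43%) and 31 did not pass. Without WT replicate 3 the count was 16 of 35 (45.7%, background 10.2%). The median log2 fold change was 0.06 with all libraries and 0.17 without that library, but −0.0037 without WT replicate 1 and 0.015 without WT replicate 2. Ndufv1, the FMN-binding subunit at which NADH is oxidised, had 119, 125 and 124 CPM in the 3 KO libraries, against 96.0, 103 and 71.9 CPM in WT replicates 1 to 3. All KO values lay above all WT values, and WT replicate 3 was the lowest. Its log2 fold change was 0.43 (SE 0.11, adjusted p = 0.0280), and 0.31 without WT replicate 3. Ndufs3, a core subunit of the arm that carries electrons towards ubiquinone, had 49.3, 49.9 and 51.9 CPM in KO, against 42.1, 43.3 and 39.4 CPM in WT, without overlap. Its log2 fold change was 0.27 (SE 0.06, adjusted p = 0.0196).

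Ndufs6 and Ndufa11 are accessory subunits, the one a zinc-binding protein of the matrix arm and the other in the membrane arm. Ndufs6 had 29.6, 28.8 and 27.9 CPM in KO, against 20.5, 23.1 and 27.0 CPM in WT (log2 0.32, SE 0.09, adjusted p = 0.0424). WT replicate 3 came close to the KO libraries here, and without it the log2 fold change was 0.41 (adjusted p = 0.00220). Ndufa11 had 56.6, 54.5 and 57.1 CPM in KO, against 46.6, 47.8 and 51.0 CPM in WT (log2 0.22, SE 0.06, adjusted p = 0.0409). The 4 genes showed no overlap between the groups, and each lost its call when any single KO library was left out.

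A further 12 complex I genes passed without WT replicate 3 and not with all libraries. Those with the smallest p were the accessory subunits Ndufa8, Ndufa10 and Ndufb10 and the NADH-module subunit Ndufv3, at log2 0.34, 0.24, 0.31 and 0.28 (adjusted p = 0.00191, 0.00536, 0.00536 and 0.0117). With all libraries their values were 0.18, 0.16, 0.05 and 0.17 (adjusted p = 0.381, 0.140, 0.891 and 0.266). In each of the 4, WT replicate 3 was the highest WT library: Ndufb10 had 52.1, 47.9 and 49.1 CPM in KO, against 38.1, 42.4 and 69.0 CPM in WT. The others in this set were Ndufa2, Ndufa6, Ndufa7, Ndufa12, Ndufb6, Ndufb8, Ndufs8 and Ndufv2. Per kilobase of transcript, the highest level of the complex was that of Ndufb8, a membrane-arm subunit, at 192 CPM per kilobase in KO and 171 in WT. The lowest was that of Ndufab1, the mitochondrial acyl carrier protein, at 11.6 in KO and 12.3 in WT, with 2 pseudogene copies in the genome. This rests on a transcript of 3479 bases. In CPM Ndufab1 had 40.4 in KO and 42.8 in WT, above for example Ndufb4 at 18.7 and 19.9. Ndufs5 was at 0 counts in every library on the counted strand, and its level was not analysed here.

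Complex II oxidises succinate and belongs to both the respiratory chain and the citric acid cycle. It was the complex with the largest share past the test. Of its 4 genes 3 rose with all libraries (background 6.43%) and all 4 without WT replicate 3 (background 10.2%). The medians were 0.28 and 0.24. Sdhb, the iron-sulfur subunit gene (chr4:140961203-140979193, GRCm38), had 85.3, 87.4 and 88.5 CPM in KO, against 67.7, 71.0 and 66.6 CPM in WT. Every KO library lay above every WT library, with means of 87.1 ± 1.62 CPM in KO and 68.4 ± 2.26 CPM in WT (SD, n = 3 each). The log2 fold change was 0.34 (SE 0.06), that is 1.27-fold, with the smallest adjusted p of the 90 genes (0.00445). Without WT replicate 3 the log2 fold change was 0.33 (adjusted p = 7.45e-04).

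Sdhc and Sdhd form the haem-carrying membrane anchor. Sdhc had 95.8, 92.9 and 96.8 CPM in KO, against 81.3, 81.8 and 75.5 CPM in WT (log2 0.25, SE 0.06, adjusted p = 0.0205). Sdhd had 76.0, 71.7 and 72.6 CPM in KO, against 61.0, 65.6 and 50.5 CPM in WT (log2 0.30, SE 0.09, adjusted p = 0.0415). Neither overlapped between the groups, and each kept its call in 2 of the 6 fits that left out a library. Sdha, the FAD-binding catalytic subunit, had 299, 300 and 281 CPM in KO, against 247, 248 and 286 CPM in WT. WT replicate 3 fell among the KO values, and Sdha did not pass with all libraries (log2 0.17, SE 0.07, adjusted p = 0.120) but did without that library (0.25, adjusted p = 0.00681). Summed over the 4 genes, complex II reached 538 to 556 CPM in KO libraries and 457 to 479 CPM in WT libraries, so the sums did not overlap even with WT replicate 3 included. Per kilobase, Sdha had the highest level of the complex (101 CPM per kilobase in KO and 89.8 in WT) and Sdhc the lowest (30.0 in KO and 25.1 in WT). The Sdhc value rests on a transcript of 3171 bases, and in CPM Sdhd was lower than Sdhc.

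**Figure D2:**
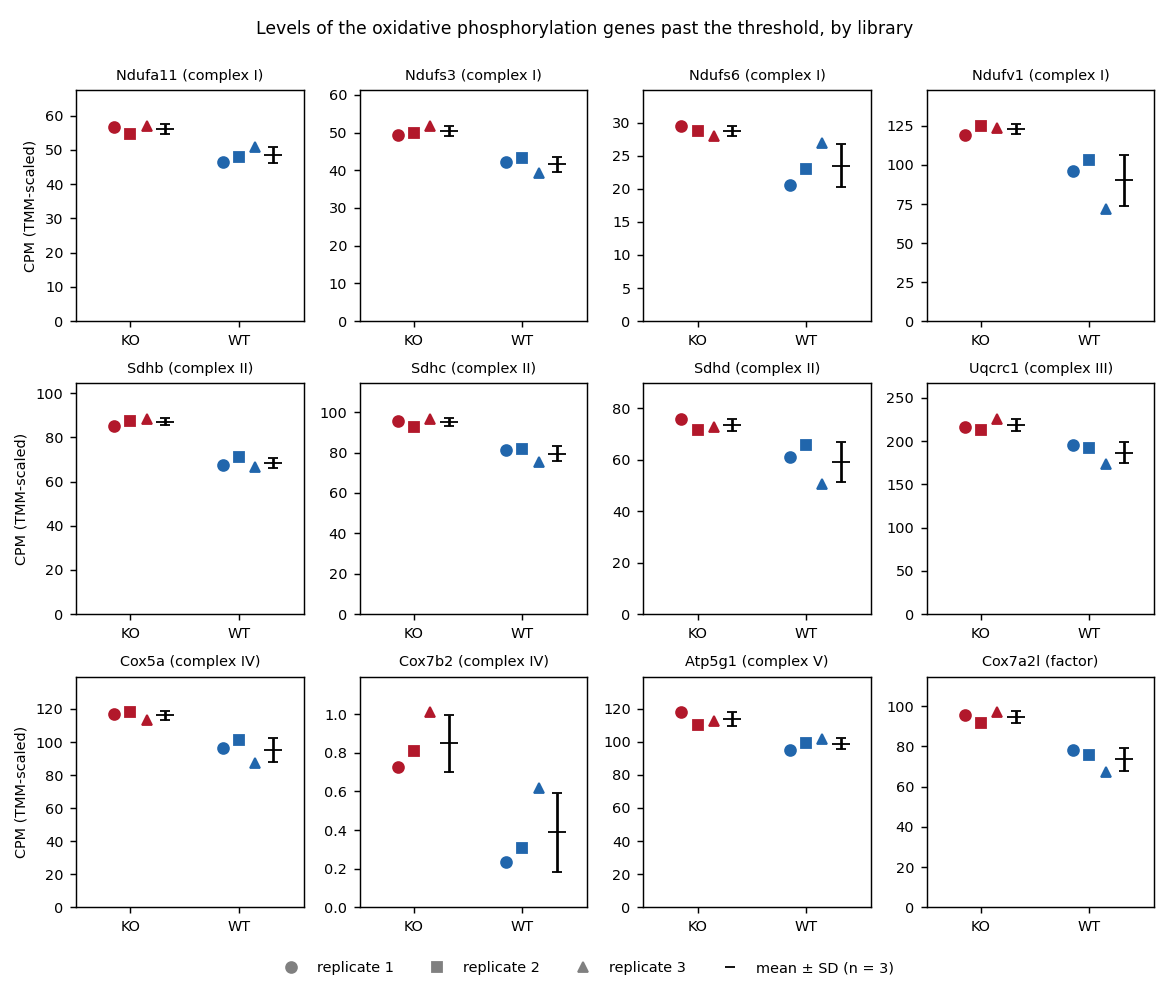
CPM in each library for the 12 genes past the threshold with all libraries, KO left of WT, each panel from 0, with the mean and SD of 3 libraries beside the points. In all 12 panels the KO points lie above the WT points, from a narrow gap in Ndufs6, where WT replicate 3 has 27.0 CPM, to a wide one in Sdhb. The 12 were selected by the test on these same libraries, so this separation is not a separate result. It was present in 18.9% of all tested genes.

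Complex III passes electrons from ubiquinol to cytochrome c. Of its 9 genes 1 rose with all libraries (11.1%, background 6.43%) and 2 without WT replicate 3 (22.2%, background 10.2%). The median log2 fold change was 0.12 in both fits and 0.078 without KO replicate 3. Uqcrc1, a core subunit related to processing peptidases, had 217, 213 and 226 CPM in KO, against 196, 191 and 173 CPM in WT (log2 0.22, SE 0.07, adjusted p = 0.0423). The groups did not overlap, and the call was kept in 2 of the 6 fits that left out a library. Uqcrfs1, the Rieske iron-sulfur protein, had the largest fold change of the complex. It had 103, 103 and 107 CPM in KO, against 92.0, 94.7 and 77.8 CPM in WT, and passed without WT replicate 3 but not with all libraries (log2 0.17, adjusted p = 0.0358 without it and 0.23, adjusted p = 0.0629 with it). The hinge protein gene Uqcrh had the highest level per kilobase, 175 CPM per kilobase in KO and 205 in WT, and did not pass (log2 −0.21, SE 0.16). Uqcrq had the lowest, 54.8 in KO and 51.1 in WT, over a transcript of 1521 bases, and in CPM Uqcrb was lower than Uqcrq. The summed level of the complex was 965 to 1016 CPM in KO and 903 to 951 CPM in WT.

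Complex IV transfers electrons from cytochrome c to oxygen. With all libraries 2 of its 17 testable genes rose (11.8%, background 6.43%). Because 1 of the 2, Cox7b2, entered the test through the group in which it was high, this share is not read as an excess. Without WT replicate 3 the count was 6 of 18 (33.3%, background 10.2%). The medians were 0.06 and 0.22. Over the 17 genes, the median was −0.043 without WT replicate 1, −0.012 without WT replicate 2 and 0.032 without KO replicate 1. Cox5a, a subunit on the matrix side, had 117, 118 and 113 CPM in KO, against 96.3, 102 and 87.1 CPM in WT (log2 0.29, SE 0.07, adjusted p = 0.0204). The groups did not overlap. Cox7b2 (chr5:71442824-71548205), a paralog of the membrane subunit gene Cox7b, stood near the limit of detection, with 28, 32 and 42 reads in KO, against 8, 10 and 4 reads in WT. These are 0.726, 0.808 and 1.01 CPM in KO and 0.232, 0.309 and 0.620 CPM in WT, and the value of WT replicate 3 rests on 4 reads. Its fitted log2 fold change was 1.46 (SE 0.35, adjusted p = 0.0192), and the call held in 2 of the 6 fits that left out a library. Cox7b2 passed the filter on low counts through its KO libraries, the group in which it was high.

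The 4 other complex IV genes that passed without WT replicate 3 were Cox4i1, Cox5b, Cox6a1 and Cox8a, all subunits around the catalytic core. Their log2 fold changes were 0.29, 0.35, 0.21 and 0.23 (adjusted p = 0.00312, 0.00802, 0.0201 and 0.0256), against 0.20, 0.08, 0.06 and 0.16 with all libraries (adjusted p = 0.123, 0.847, 0.756 and 0.173). Cox4i1 had 305, 283 and 304 CPM in KO, against 244, 243 and 294 CPM in WT. Here too WT replicate 3 lay inside the KO range while the other WT libraries lay below it. The sign of Cox5b and of Cox6a1 turned when WT replicate 1 or 2 was left out, to −0.09 and −0.01 for Cox5b and to −0.0082 and −0.02 for Cox6a1.

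Several complex IV subunits exist as isoforms from separate genes, some of them best known from muscle, lung or testis. In cerebellum 1 isoform made up most of the level per kilobase in nearly every family and library. Cox4i1 held 99.6% of the Cox4 family in KO and 99.5% in WT (medians of 3 libraries), with Cox4i2, known from lung, holding the rest. Cox6a1 held a median of 99.8% in KO and 99.9% in WT over the muscle form Cox6a2, which was below the filter with 2, 12 and 13 reads in KO and 2, 3 and 1 reads in WT. Cox8a held 99.5% in KO and 99.7% in WT. Cox8b, the muscle form, did not pass (log2 0.36, SE 0.38), and Cox8c was at 0 reads in every library, below a limit of 3 reads that corresponds to 0.0723 to 0.465 CPM.

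Cox6b1 held 96.5% in KO and 97.1% in WT, with Cox6b2, known from testis, at 5.62 ± 0.344 CPM in KO and 4.86 ± 0.487 CPM in WT (SD, n = 3 each) and not past the test (log2 0.25, adjusted p = 0.197). Cox7b held 98.8% in KO and 99.5% in WT, the remainder being Cox7b2. Ndufa4, first assigned to complex I and since placed in complex IV, held 99.5% in KO and 99.4% in WT over its paralog Ndufa4l2, and neither passed (log2 0.02 and −0.31). The lower-level isoforms stood on few reads: Cox4i2 had 48, 48 and 48 reads in KO and 38, 28 and 11 reads in WT, and was not past the test.

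The Cox7a family was the most mixed of complex IV. The general form Cox7a2 held 66.7% to 68.8% of the family in KO and 67.1% to 72.0% in WT. Cox7a2l, the related supercomplex factor, held 29.9% to 32.0% in KO and 26.1% to 27.1% in WT, without overlap. Cox7a1, the heart and skeletal muscle form, held 1.30% to 1.35% in KO and 1.79% to 5.83% in WT. In CPM Cox7a1 had 1.48, 1.39 and 1.54 in KO, against 1.95, 2.26 and 5.27 in WT, so that all KO libraries lay below all WT libraries. It did not pass with all libraries (log2 −0.83, SE 0.31, adjusted p = 0.0923) or without WT replicate 3 (−0.51, adjusted p = 0.0748). It did pass in DESeq2's Wald test (adjusted p = 0.0324) and without WT replicate 1 (adjusted p = 0.0408). The 10 skeletal and cardiac muscle markers summed to 3.42 to 3.94 CPM in KO and 3.37 to 11.5 CPM in WT, and their part in the Cox7a1 values was not tested.

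**Figure D3:**
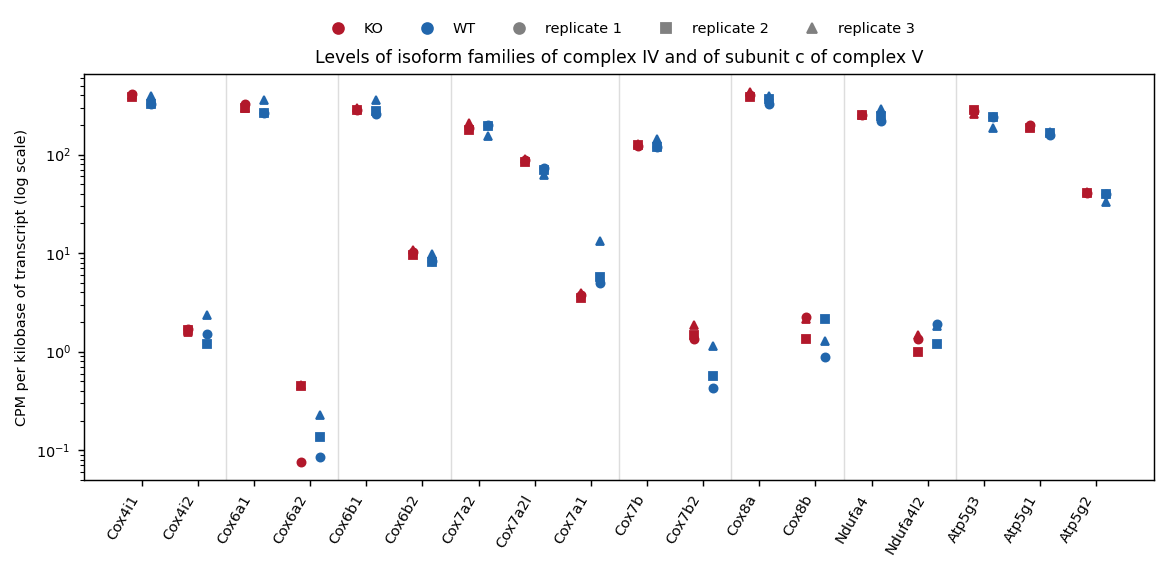
CPM per kilobase of transcript, on a log axis, of the isoform families of complex IV and of subunit c of complex V, in each library, KO left of WT for every gene. Cox4, Cox6a, Cox7b, Cox8 and Ndufa4 families each have 1 form far above the other, whereas Cox7a2 and Cox7a2l, and Atp5g3 and Atp5g1, lie close together. Cox8c, at 0, is not drawn.

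Complex V makes ATP. Of its 15 genes 1 rose with all libraries (6.67%, background 6.43%) and 5 without WT replicate 3 (33.3%, background 10.2%). The medians were 0.11 and 0.10. Atp5g1 is 1 of 3 genes that encode the same mature subunit c of the rotor ring. It had 118, 110 and 113 CPM in KO, against 95.3, 99.5 and 102 CPM in WT (log2 0.21, SE 0.06, adjusted p = 0.0457). The groups did not overlap, and of the 6 fits that left out a library the call was kept in the 1 without WT replicate 3. Its sister gene Atp5g3 had 196, 201 and 186 CPM in KO, against 171, 171 and 134 CPM in WT. It narrowly missed with all libraries (log2 0.28, adjusted p = 0.0566) and passed without WT replicate 3 (0.19, adjusted p = 0.0263). Atp5g2, the lowest of the complex per kilobase (41.3 CPM per kilobase in KO and 37.7 in WT), did not pass (log2 0.11, adjusted p = 0.388). The shares of the 3 genes in the family overlapped between the genotypes. Atp5g3 held 53.0% to 55.4% of the family in KO and 48.0% to 54.5% in WT, Atp5g1 36.4% to 38.6% in KO and 36.4% to 43.6% in WT, and Atp5g2 7.97% to 8.47% in KO and 8.44% to 9.17% in WT.

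The catalytic beta subunit gene Atp5b was the most abundant oxidative phosphorylation gene per kilobase, at 590 CPM per kilobase in KO and 506 in WT. It had 1142, 1111 and 1137 CPM in KO, against 1003, 1021 and 886 CPM in WT. The groups did not overlap, yet it did not pass with all libraries (log2 0.22, SE 0.08, adjusted p = 0.0742) and passed without WT replicate 3 (0.16, adjusted p = 0.0373). Atp5d and Atp5o, which encode the delta subunit of the central stalk and the stator subunit OSCP, also passed without it and not with it (both, without it, log2 0.17, adjusted p = 0.0470 and 0.0358). Atp5j2, a membrane subunit, had the largest fold change of the complex but did not pass (log2 −0.78, SE 0.50, adjusted p = 0.365). It had 30.6, 29.4 and 26.7 CPM in KO, against 30.6, 34.5 and 94.8 CPM in WT, and without WT replicate 3 its log2 fold change was −0.17. The summed level of complex V was 3266 to 3318 CPM in KO and 2944 to 3061 CPM in WT, without overlap.

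Among the 10 assembly and other factors, Cox7a2l rose and 9 did not pass, in both fits. This was 10%, against backgrounds of 6.43% with all libraries and 10.2% without WT replicate 3. The medians were 0.04 and 0.05. When a library was left out the median ran from −0.018, without WT replicate 2, and 0.011, without KO replicate 3, to 0.055, without KO replicate 1. Cox7a2l (chr17:83501918-83517330), also called SCAFI, takes part in joining complexes III and IV into supercomplexes. It had 95.6, 91.4 and 97.1 CPM in KO, against 78.1, 75.7 and 67.1 CPM in WT, without overlap (log2 0.35, SE 0.07, adjusted p = 0.00860). A pseudogene copy of at least 95% identity exists, and reads that match both places equally were left out of the counts. The complex I assembly factor Ndufaf6 had the lowest level of the group, 3.11 CPM per kilobase in KO and 3.89 in WT, and did not pass (log2 −0.23). Ndufaf4, also an assembly factor of complex I, had all KO libraries (22.6 to 24.1 CPM) below all WT libraries (25.9 to 26.0 CPM) and did not pass either (log2 −0.16, SE 0.07, adjusted p = 0.153). Ndufaf2, which acts late in complex I assembly, had the largest absolute log2 fold change of the group, −0.37 (adjusted p = 0.681), and 0.23 without WT replicate 3.

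WT replicate 3 stood apart from the other WT libraries more often for short transcripts. In it 9 of the 90 genes lay more than 1 log2 unit above the mean of WT replicates 1 and 2, against a background of 2.22%, and 1, Atp5e, lay more than 1 below (−1.07, background 2.53%). The 9 were Ndufa5, Ndufa13, Ndufb7, Cox6c, Cox7a1, Cox7b2, Atp5j2, Atp5k and Ndufaf2. Ndufa13, a membrane-anchored subunit of complex I also known as GRIM-19, was the most extreme, with 26.6, 24.8 and 19.9 CPM in KO, against 21.5, 25.9 and 122 CPM in WT. That is 5.17-fold above the other WT libraries. Its log2 fold change was −1.09 (SE 0.82, adjusted p = 0.434) with all libraries and 0.01 without WT replicate 3. Cox6c, a small membrane subunit of complex IV, had 91.2, 83.3 and 73.8 CPM in KO, against 79.0, 84.2 and 267 CPM in WT, and its log2 fold change was −0.74 with all libraries and 0.02 without that library.

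By transcript length, the median deviation of WT replicate 3 was 0.31 for the 25 genes under 600 bases and 0.44 for the 29 from 600 to under 1000 bases. It was −0.08 for the 28 from 1000 to under 2000 bases and 0.10 for the 8 of 2000 bases and over. For all tested genes in the same classes the medians were 0.17, 0.13, −0.0045 and −0.03. The shares of all tested genes more than 1 log2 unit above were 15%, 7.55%, 3.18% and 1.09%. Of the 9 genes above, 4 were under 600 bases, 4 had 600 to under 1000 and 1, Ndufa13, was longer. Over all 93 genes the summed level was 8889 to 9054 CPM in KO, against 7948 and 8264 CPM in WT replicates 1 and 2 and 9184 CPM in WT replicate 3. The sums of complexes I and IV behaved in this way, at 2178 to 2198 CPM in KO and 1907, 2021 and 2425 CPM in WT for complex I, and 1688 to 1764 CPM in KO and 1508, 1585 and 2043 CPM in WT for complex IV.

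**Figure D4:**
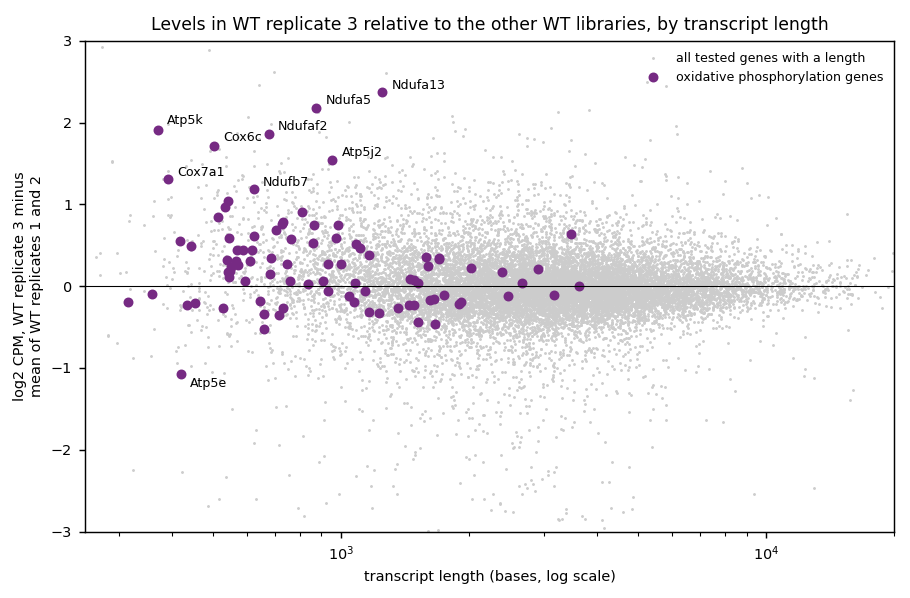
Log2 CPM of WT replicate 3 minus the mean of WT replicates 1 and 2, against transcript length on a log axis, for the oxidative phosphorylation genes (purple) and all tested genes with a length (grey, values beyond 3 log2 units not drawn). The genes named in the plot lie more than 1 unit from 0. Cox7b2, at 1.04, is not labelled.

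Other genes of mitochondrial energy metabolism were counted in lists. The background for these counts was 6.43% higher and 10.2% lower with all libraries, and 10.2% higher and 13.2% lower without WT replicate 3. Of 18 genes of the citric acid cycle and pyruvate dehydrogenase, 4 rose, 0 fell and 14 did not pass, and 6 were higher without WT replicate 3. Idh3a, a subunit of NAD-dependent isocitrate dehydrogenase, rose by 0.25 (SE 0.06, adjusted p = 0.0176), the malate dehydrogenase gene Mdh2 by 0.24 (SE 0.06, adjusted p = 0.0194) and Ogdh, of the 2-oxoglutarate dehydrogenase complex, by 0.20 (SE 0.06, adjusted p = 0.0413). Of 7 carriers and channels, 1, the outer membrane channel Vdac1, rose (0.26, SE 0.07, adjusted p = 0.0302) and 0 fell, and 5 were higher without WT replicate 3. Cycs, the cytochrome c gene, had 49.98, 49.3 and 56.0 CPM in KO, against 50.1, 50.03 and 90.7 CPM in WT, and did not pass (log2 −0.25, SE 0.25). Of 42 assembly factors with other symbols, 2 rose (4.76%) and 0 fell. The 2 were Coa5, for complex IV (0.36, SE 0.08, adjusted p = 0.0166), and Atpaf1, for complex V (0.33, SE 0.08, adjusted p = 0.0183). Without WT replicate 3 the counts were 3 higher and 1 lower. Of 8 cristae genes and 7 genes of mitochondrial transcription, 0 passed in edgeR's test and 0 in DESeq2's. At an unadjusted p under 0.05 in edgeR's test, 1 cristae gene was lower and 0 genes of mitochondrial transcription differed. At the same limit 7 citric acid cycle genes and 6 carriers and channels were higher, and 0 of either were lower (backgrounds 14.7% and 17.8%). Without WT replicate 3, 0 cristae genes passed, and 1 gene of mitochondrial transcription was lower.

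Among 12 known regulators of oxidative phosphorylation genes, 1 rose and 2 fell, and without WT replicate 3 the counts were 1 higher and 3 lower. At an unadjusted p under 0.05 in edgeR's test, 1 was higher and 5 were lower (backgrounds 14.7% and 17.8%). Their median log2 fold change was −0.19 with all libraries and −0.16 without WT replicate 3. Ppargc1a, which encodes the coactivator PGC-1alpha, had 83.7, 87.7 and 85.3 CPM in KO, against 73.5, 72.3 and 72.5 CPM in WT (log2 0.23, SE 0.06, adjusted p = 0.0231). The CREB coactivator gene Crtc2 fell (log2 −0.48, SE 0.10, adjusted p = 0.00942), as did Gabpb2, which encodes a beta subunit of GABP (−0.32, SE 0.09, adjusted p = 0.0322). Nrf1, looked up after its values were seen, was at −0.28 (adjusted p = 0.0888) with all libraries and passed without WT replicate 3 (−0.30, adjusted p = 0.0478).

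Of 15 glycolysis genes 1 rose and 2 fell: the aldolase gene Aldoc (log2 0.29, adjusted p = 0.0473) against the phosphoglucose isomerase gene Gpi1 (−0.32, adjusted p = 0.0112) and the phosphofructokinase gene Pfkp (−0.27, adjusted p = 0.0235). Without WT replicate 3 the counts were 5 higher and 3 lower. Of 77 mitochondrial ribosomal protein genes 1 rose, Mrpl43 (log2 0.24, adjusted p = 0.0402), and 0 fell, at a median log2 fold change of 0.05, and 6 were higher without WT replicate 3. Of 81 cytosolic ribosomal protein genes 9 rose and 1 fell, at a median of 0.05, and 25 were higher and 1 lower without WT replicate 3 (median 0.14). Those with the smallest p were Rps19 (log2 0.43, adjusted p = 0.00151), Rpsa (−0.27, adjusted p = 0.0157) and Rpl3 (0.32, adjusted p = 0.0158), and many genes of this family have near-identical copies. The share of oxidative phosphorylation genes higher in KO, 13.3%, thus stood beside 11.1% of cytosolic ribosomal protein genes and 1.30% of mitochondrial ribosomal protein genes with all libraries, and 37.4% beside 30.9% and 7.79% without WT replicate 3.

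Some cell-type markers differed between the groups too. Over all tested genes 6.43% were higher and 10.2% lower with all libraries, and 10.2% and 13.2% without WT replicate 3. At an unadjusted p under 0.05 with all libraries these shares were 14.7% and 17.8%. In lists this short, a count of 1 is not read as a shift of the list. In bulk tissue fewer cells of a type and less RNA per cell cannot be told apart. The 10 endothelial and mural markers summed to 210 to 217 CPM in KO and 286 to 320 CPM in WT, with 9 of 10 lower, and the 8 meningeal fibroblast markers to 202 to 215 CPM in KO and 284 to 424 CPM in WT, with 6 of 8 lower. The 8 oligodendrocyte markers summed to 30821 to 32734 CPM in KO and 24172 to 27976 CPM in WT, with 0 of 8 past edgeR's test and 4 higher at an unadjusted p under 0.05. Of the 10 Purkinje cell markers 4 were higher, at sums of 4343 to 5462 CPM in KO and 3809 to 4500 CPM in WT. Of the 9 astrocyte and Bergmann glia markers 2 were higher, at 8434 to 9087 CPM in KO and 7547 to 7967 CPM in WT. Of the 10 granule neuron markers 1 was lower, at 1788 to 2444 CPM in KO and 2231 to 2822 CPM in WT. At an unadjusted p under 0.05 in edgeR's test, 5 of these 10 were lower and 0 higher. The median log2 fold change of the granule neuron markers was −0.28 with all libraries and −0.24 without WT replicate 3. Of 8 microglial markers 1 was higher (220 to 232 CPM in KO and 190 to 219 CPM in WT), and of 8 choroid plexus markers 0 passed edgeR's test and 2 were lower at an unadjusted p under 0.05 (1867 to 2278 CPM in KO and 2030 to 2339 CPM in WT). Without WT replicate 3, 2 oligodendrocyte, 3 Purkinje cell and 3 astrocyte markers were higher and 0 granule neuron markers were lower, while the counts for the other 4 lists were as with all libraries. No marker of these 8 lists was at 0 in every library. The part of these differences, and of the share of reads outside genes, in the oxidative phosphorylation values was not tested.

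**Figure D5:**
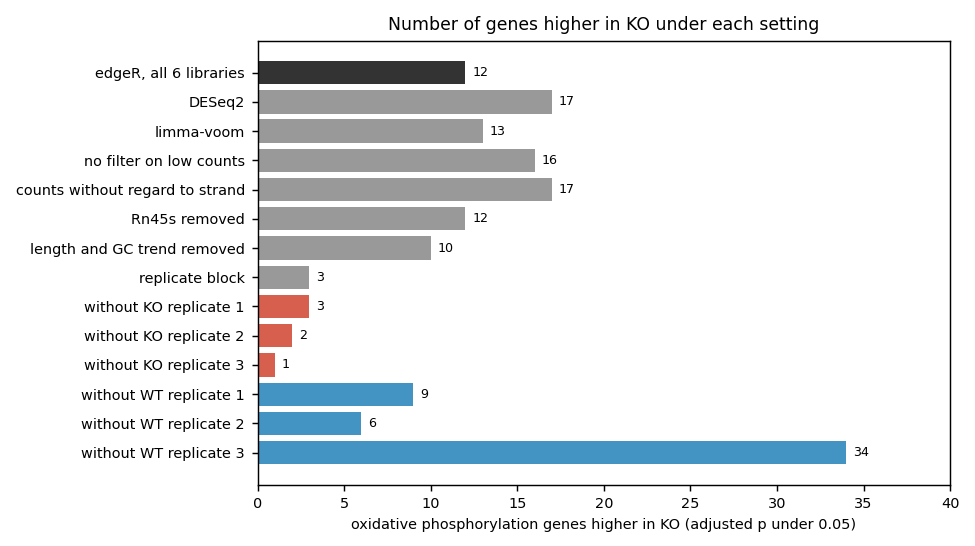
Number of oxidative phosphorylation genes higher in KO at an adjusted p under 0.05 under each setting, with bars from 0. The count is 12 with all libraries in edgeR, between 10 and 17 under other tools, filters and corrections, 3 with a replicate block, and between 1 and 34 when a library is left out.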

How the data were processed

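The authors' deposited values are raw counts, given per gene for 24411 symbols with 1 file per library and no normalization. Trimming was done with Trimmomatic, and STAR aligned and counted the reads on mm10, per the submitters' processing notes. Their versions and the gene annotation were not given in the sources at hand. Groups and replicate numbers came from the titles. For KO replicate 3 the name of the file differs from the pattern of the other KO files, and its title was used. Column 4, the heavier strand, was used, and lines that name no gene entered neither library sizes nor tests. Reads with several best places in the genome are not in gene counts, so the 20 genes with a pseudogene copy (blastn 2.17.0, at least 95% identity over at least 200 bases), 4 of them (Ndufs3, Ndufs6, Atp5g1 and Cox7a2l) among the 12 that rose, are uncertain. A count of 0 allows up to 3 reads, and this limit covers counting error only.

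Genes with low counts were dropped (edgeR's filterByExpr, minimum count 10), and library sizes were TMM-scaled. The comparison of KO with WT used edgeR 4.0.16 in R 4.3.3 (glmQLFit with robust estimation and glmQLFTest, no covariates), and p-values were Benjamini-Hochberg adjusted over the 15519 genes tested, at a threshold of 0.05. SE was taken as the size of the log2 fold change over the root of F. CPM are counts scaled to 1e+06 TMM-scaled reads, with a prior count of 2 on the log2 scale. CPM per kilobase used 1 GENCODE M21 transcript per gene, so ranks per kilobase depend on the transcript chosen. Promoters came from RefSeq (GRCm38.p6). Alternatives were DESeq2 1.42.0, limma-voom (limma 3.58.1), no filter, counts without regard to strand, Rn45s removed, a loess length and GC trend removed (span 0.5), a replicate block, and each library left out. The code was tested on simulated data.

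The genes, lists and alternatives were chosen with earlier results of these data known. Genes were named if past the threshold with all libraries, or without WT replicate 3 (up to 4 more per complex by smallest p), if highest or lowest per kilobase or largest in absolute fold change in a complex, if in an isoform family, or if among the 3 smallest p past the threshold in a list. Other genes named (those more than 1 log2 unit off in WT replicate 3, those with KO below every WT library, the remaining genes past the threshold without it, Cycs and Nrf1) were chosen after their values were seen.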

Additional observations from a re-analysis of the deposited data

How the results depend on the processing

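The 12 genes that rose kept a positive fold change under all 13 alternatives, and all 12 passed under DESeq2, limma-voom, no filter, counts without regard to strand, Rn45s removed and without WT replicate 3. With the length and GC trend removed 10 of them passed. Of the counts and medians, those that moved beyond 1.5 times or beyond 1 SD follow, and the cause was not tested.

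DESeq2 called 2 genes higher in complex III and 3 in complex V, 1 gene lower among all 90, and 3 carriers and channels, 8 glycolysis genes and 0 mitochondrial ribosomal protein genes. Limma-voom called 2 in complex V, 3 carriers and channels and 5 glycolysis genes. Without a filter the counts were 2 in complex III, 2 in complex V and 2 carriers and channels. Without regard to strand they were 2 in complex III, 3 in complex V, 6 assembly factors, 3 carriers and channels and 2 mitochondrial ribosomal protein genes. With the trend removed they were 0 in complex III, 4 assembly factors, 1 cristae gene and 3 mitochondrial ribosomal protein genes, and the log2 fold changes of Cox7b and Ndufab1 turned to 0.075 and 0.013. That of Ndufab1 turned to 0.055 in limma-voom.

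With a replicate block 1073 genes passed (252 higher, 821 lower) and 3 oxidative phosphorylation genes rose, Sdhb, Cox7a2l and Ndufv1: 1 in complex I, 1 in complex II and 0 in each of complexes III, IV and V. The block gave 0 carriers and channels, 0 assembly factors, 1 cytosolic ribosomal protein gene, 0 glycolysis genes, 0 mitochondrial ribosomal protein genes, 1 regulator and 0 citric acid cycle genes. The residuals of KO and WT libraries of the same number correlated at −0.18, −0.14 and −0.10. Residuals centred in groups of 3 libraries are tied to each other, so these values cannot settle whether the numbers mark pairs. The labels do not say so either.

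Leaving out a library gave 1041 to 3719 genes (245 to 1623 higher, 796 to 2096 lower). Oxidative phosphorylation genes higher numbered 1 to 34 and lower 0 to 1, with 0 to 16 higher in complex I, 1 to 4 in II, 0 to 2 in III, 0 to 6 in IV, 0 to 5 in V and 0 to 1 factors. The median log2 fold change was −0.0037 to 0.17 in complex I, 0.24 to 0.32 in complex II, −0.043 to 0.21 in complex IV (over the 17 genes tested with all libraries) and −0.018 to 0.055 among the factors. Counts in lists were 0 to 4 assembly factors, 0 to 5 carriers and channels, 0 to 8 glycolysis genes, 0 to 1 of mitochondrial transcription, 0 to 4 regulators, 0 to 6 of the citric acid cycle, 0 to 6 mitochondrial and 2 to 26 cytosolic ribosomal protein genes. Of the 90 genes, 38 took both signs among these fits, none of them past the threshold with all libraries. Among them, log2 fold changes ran from −0.090 to 0.35 in Cox5b, −0.74 to 0.23 in Ndufaf2, −0.11 to 0.31 in Ndufb10, −0.050 to 0.29 in Cox4i2, −0.022 to 0.21 in Cox6a1, −0.063 to 0.13 in Ndufa4, −0.15 to 0.10 in Cox6b1, −0.16 to 0.17 in Ndufab1, −0.043 to 0.97 in Cox8b, −1.51 to 0.0068 in Ndufa13, −0.037 to 0.12 in Cox7a2 and −0.083 to 0.056 in Cox7b.

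With 3 libraries a group, differences of this size stood close to the threshold, and WT replicate 3 held 59260 reads on these genes. Reads outside genes differed between the groups in every library, so this share and genotype cannot be told apart.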
